A study of Caenorhabditis elegans with 2 samples.

Results

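The TALE homeobox Hox cofactor genes of Caenorhabditis elegans are ceh-20, ceh-40, ceh-60 and unc-62, which are 4 of the 19973 protein-coding genes of its nuclear chromosomes in the annotation used here. They were taken by name, and they were chosen by the promoter peaks of ceh-20 and unc-62 in the same SPTF-1 region lists that are described here. Their peak heights, ranks and counts are therefore given as a description, with no test. TALE proteins carry a homeodomain with extra amino acids in a loop between its helices. Those of the PBC class (ceh-20, ceh-40 and ceh-60, relatives of fly extradenticle and vertebrate Pbx) and of the Meis class (unc-62, the relative of fly homothorax and vertebrate Meis) bind DNA together with each other and with Hox proteins, and so add to the site choice of the Hox proteins that pattern the body axis. In the worm, ceh-20 and unc-62 act in neuroblast migration and in the postembryonic mesoderm, ceh-40 overlaps with ceh-20 in embryogenesis, and ceh-60 acts with unc-62 in the adult intestine, where yolk protein genes are expressed.

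The study used chromatin immunoprecipitation followed by sequencing (ChIP-seq) to map the zinc-finger protein SPTF-1, an Sp-type transcription factor, in 2 biological replicates of 1 group. Both replicates were whole mixed-stage embryos, with males and females pooled, taken 2.5 hours after egg bleaching, a treatment that kills adults and frees their eggs. Their strain was OP707, with the genotype unc-119(tm4063) III; wgIs707, in which the mapped protein is made from a stable transgene and carries GFP and FLAG at its C terminus. The description names an antibody against GFP for the precipitation, while the antibody field names sptf-1, and there was no group without the tagged protein among the samples. Because embryos of many ages and all tissues were combined, a weak signal in all cells and a strong signal in few cells cannot be told apart.

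Each deposited list gives regions with a signal value from the authors' peak caller and a summit, the base of highest signal. The thresholded list holds 2430 regions. It is identical to the 2430 strongest of the 30000 regions called on both replicates together, here named the pooled list. The deposit labels the pooled list as peaks and background, the input to a test of replicate reproducibility. Weak regions of the pooled list can therefore be background. Each replicate also has a list of 30000 regions of its own. Signal values run between 68.4 and 8188 in the pooled list, between 42.8 and 4416 in that of replicate 1, and between 33.2 and 3674 in that of replicate 2. The scale differs between lists, so replicates are compared by rank, where rank 1 is the strongest region, and the 2430 strongest of each replicate were set beside the thresholded list. A promoter window ran between 1000 bp upstream and 500 bp downstream of any annotated 5′ end of a protein-coding transcript. The wider window of a gene was the gene with 3000 bp upstream of its outermost 5′ end. A gene without a summit has no listed region, which gives no value for the signal there.

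The sequences under and beside the regions that the results turn on are shown first, read from the RefSeq genome of the WBcel235 build (ce11). The ceh-20 run is centred on its summit at III:6979006-6979205. The unc-62 upstream run is centred on a summit at V:4491561-4491760. The unc-62 intron run is the 30 bp around the summit at V:4508046-4508075. For contrast, the 200 bp before the 5′ ends of ceh-40 (X:12320778-12320977) and ceh-60 (X:6530147-6530346), where no region was listed, are given on the minus strand, on which these genes lie. All other runs are on the plus strand, and all are written 5′ to 3′. Capitals mark the searched letters found on either strand: TGACAG at ceh-40, and TGACAG and TGATNNAT at ceh-60.
ceh-20 summit: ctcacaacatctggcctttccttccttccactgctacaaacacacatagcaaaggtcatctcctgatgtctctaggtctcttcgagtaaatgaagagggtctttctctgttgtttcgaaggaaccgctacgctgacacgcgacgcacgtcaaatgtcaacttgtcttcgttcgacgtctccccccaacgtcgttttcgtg
unc-62 upstream: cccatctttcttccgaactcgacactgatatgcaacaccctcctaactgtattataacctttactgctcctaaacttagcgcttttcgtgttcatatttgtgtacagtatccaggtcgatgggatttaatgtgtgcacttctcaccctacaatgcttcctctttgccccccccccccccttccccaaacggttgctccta
unc-62 intron summit: aagcagatacagccagtgggaaatatagag
ceh-40 upstream: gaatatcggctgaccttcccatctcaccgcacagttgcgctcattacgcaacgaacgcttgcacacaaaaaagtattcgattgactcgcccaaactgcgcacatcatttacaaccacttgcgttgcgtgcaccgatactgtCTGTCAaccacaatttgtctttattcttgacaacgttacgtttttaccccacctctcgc
ceh-60 upstream: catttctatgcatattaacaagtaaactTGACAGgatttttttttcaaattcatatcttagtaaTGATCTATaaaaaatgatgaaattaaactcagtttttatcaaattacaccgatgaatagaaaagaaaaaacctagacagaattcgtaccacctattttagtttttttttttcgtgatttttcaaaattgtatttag

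Of the 4 genes, ceh-20 and unc-62 had a thresholded summit in a promoter window and ceh-40 and ceh-60 had none, beside 1650 of all 19973 genes, or 8.26%. In the pooled list the same 2 genes had a promoter summit, beside 39.8% of all genes. Among the 2430 strongest regions of replicate 1, both ceh-20 and unc-62 had a promoter summit, beside 7.97% of all genes. Among those of replicate 2, 1 of the 4 genes, ceh-20, had one, beside 8.49% of all genes. In the gene with 3000 bp upstream, ceh-20 and unc-62 had thresholded summits, beside 14.1% of all genes, and pooled summits, beside 56.4%. The choice of the genes used these promoter peaks, so nothing is read from these shares.

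The PBC-class gene ceh-20 (WBGene00000443, III:6979884-6981785, plus strand, 1902 bp, 1 transcript with 5 exons) had 1 thresholded summit, at position 6979106 in the region III:6978894-6979317. The summit lay 778 bp upstream of the only annotated 5′ end, outside every exon, and 1081 bp after the end of the upstream gene F31E3.2. No other gene had this summit in a promoter window, and with a promoter window of 500 bp upstream ceh-20 had none either. The region had a signal value of 314 and rank 1116 in the pooled list. It had rank 1459 with a signal value of 158 in replicate 1, and rank 1013 with a signal value of 152 in replicate 2. Both replicates thus placed it among their 2430 strongest regions. The replicate summits lay 2 bp and 53 bp upstream of the pooled summit.

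In signal value the ceh-20 summit stood between the promoter summits nearest to it in the thresholded list, those of rab-5 (a GTPase of early endosomes) at 315 and vps-25 (a subunit of the ESCRT-II sorting complex) at 314. The rab-5 summit lay 732 bp upstream of its 5′ end and that of vps-25 lay 37 bp upstream. Weaker pooled summits of ceh-20 lay 600 bp downstream of the 5′ end in an intron and 1494 bp downstream in a coding exon. The intron summit had a signal value of 110 and rank 13448, with ranks 16451 in replicate 1 and 17431 in replicate 2. The exon summit had a signal value of 88.7 and rank 20254, with rank 17904 in replicate 1 and no overlapping region in replicate 2. The promoter region was thus the only one of the 3 within the 2430 strongest.

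The other PBC-class genes lay on the X chromosome and had no summit in the gene or 3000 bp upstream in any of the 4 lists. The single transcript of ceh-40 (WBGene00000461, X:12318126-12320777, minus strand, 2652 bp) has 6 exons, and the window held 5652 bp. Its nearest pooled summit lay 15166 bp downstream of the 5′ end and had rank 7755, and the nearest thresholded summit lay 46898 bp upstream with rank 662. The nearest summit in replicate 1 lay 10252 bp downstream, and in replicate 2 it lay 15181 bp downstream. Of the 1320 genes of the X chromosome with a window at least as long as that of ceh-40, 476 (36.1%) also had no pooled summit.

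The single transcript of ceh-60 (WBGene00017690, X:6522596-6530146, minus strand, 7551 bp) has 10 exons, and the window held 10551 bp. Its nearest pooled summit lay 11454 bp upstream of the 5′ end with rank 20744, and replicates 1 and 2 had theirs 11456 bp and 11438 bp upstream. The nearest thresholded summit lay 24879 bp downstream with rank 1385. Of the 283 genes of the X chromosome with a window at least as long, 52 (18.4%) also had no pooled summit. An empty window was thus found at a sizeable minority of comparable genes of that chromosome.

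**Figure D1:**
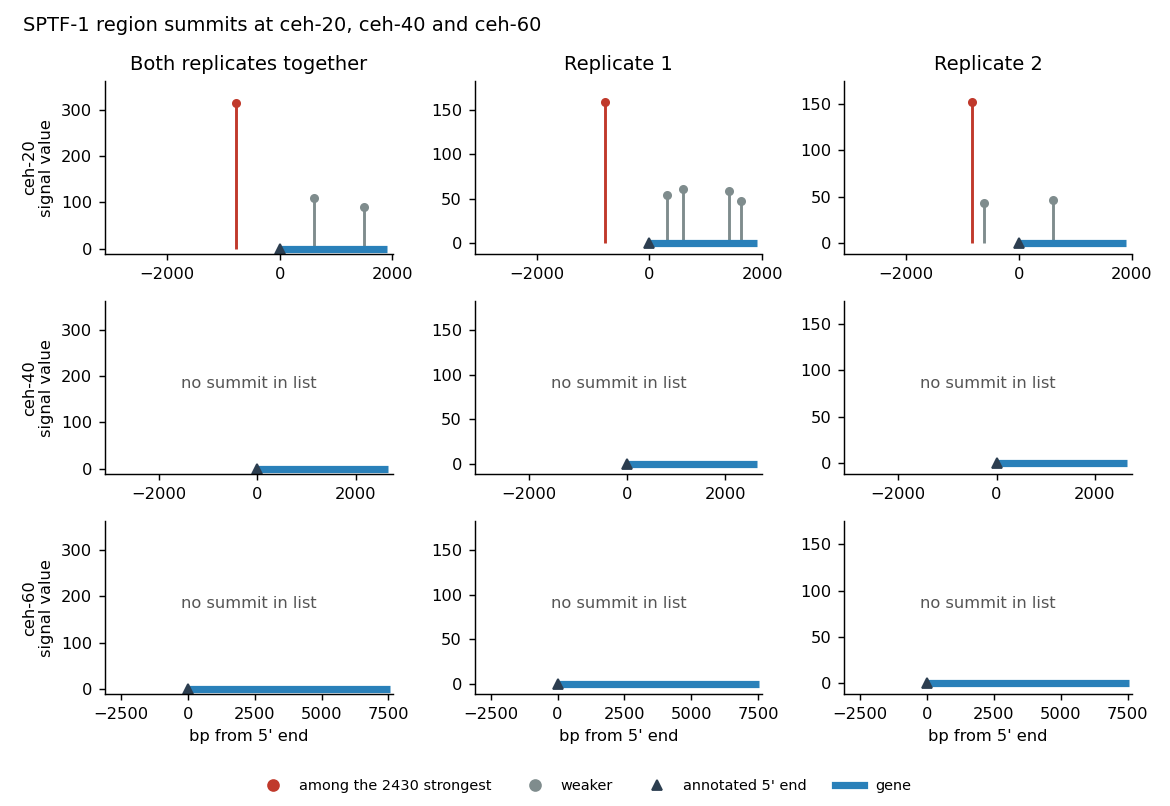
Signal values of summits in each list (rows: ceh-20, ceh-40 and ceh-60; columns: both replicates together, replicate 1, replicate 2) against distance from the annotated 5′ end in bp, with the direction of transcription to the right, red marking the 2430 strongest regions of a list and grey the weaker ones. The ceh-20 summit 778 bp upstream is red in all 3 columns, while ceh-40 and ceh-60 have no summit.

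The Meis-class gene unc-62 (WBGene00006796, V:4497461-4511449, plus strand, 13989 bp) has 18 annotated transcripts with 15 distinct 5′ ends and 2 to 10 exons each. Of these 5′ ends, 4 lay 2 to 7 bp upstream of the start of an internal exon of another transcript. Many worm transcripts receive a spliced leader at their 5′ end, so an annotated 5′ end need not be where transcription starts. The thresholded list held 2 summits in the gene and none in the 3000 bp upstream of its outermost 5′ end.

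The first summit of unc-62, at position 4499334 in the region V:4499122-4499545, lay within 10 bp of 2 alternative 5′ ends, 4 bp downstream of 4499330 and 7 bp downstream of 4499327. It lay 1873 bp downstream of the outermost 5′ end and in the promoter windows of 5 of the 15 5′ ends. The site was intronic in 5 transcripts, in the 5′ untranslated exon of 2, and outside the other 11. Its signal value was 236 and its rank 2041, near the threshold, where the weakest region inside had 218.9 and the strongest outside had 218.7. Replicate 1 gave it rank 1846 with a signal value of 143, and replicate 2 gave it rank 3493 with a signal value of 88.7. Replicate 1 thus placed it among its 2430 strongest regions and replicate 2 did not, although the replicate summits lay within 3 bp of the pooled one. The promoter summits next to it in signal value were those of ham-2 (a gene needed for the migration of the HSN motor neurons) at 236 and Y46G5A.47 at 236, 745 bp and 627 bp upstream of their 5′ ends.

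The second summit of unc-62, at 4508061 in the region V:4507849-4508272, was the strongest of the gene and lay in no promoter window. It lay 10600 bp downstream of the outermost 5′ end and 857 bp downstream of the nearest one, 4507204. The site was intronic in 17 transcripts and in the 5′ untranslated exon of 1. Its signal value was 330 and its rank 1004. It had rank 1012 with a signal value of 188 in replicate 1, and rank 1057 with a signal value of 149 in replicate 2. The 3 ranks were close, and both replicates placed it among their 2430 strongest regions.

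Another thresholded summit, at 4491661, lay beyond the 3000 bp reach, 5800 bp upstream of the outermost 5′ end and 5118 bp after the end of exc-15, the gene before unc-62. The gap between exc-15 and unc-62 is 10917 bp long. This summit had a signal value of 324 and rank 1051, with rank 945 in replicate 1 and rank 1558 in replicate 2. By 5′ ends it was nearer to unc-62, since the 5′ end of exc-15 lay 8202 bp away, and the lists do not assign it to either gene.

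The pooled list held 20 summits in the gene and 3000 bp upstream of unc-62. Their ranks lay between 1004 and 29731 and their signal values between 69.0 and 330. The authors' −log10 q was 2.02 at rank 1004, 1.19 at rank 4160 and 0.187 at rank 29731. The weaker of the 20 can therefore be background. Of these, 4 lay upstream and 16 in the gene, and the median spacing between neighbours was 673 bp. Ranks were up to 2430 for 2 of them, below that and up to 5000 for 5, and over 10000 for 11. A region of replicate 1 overlapped 18 of the 20, a region of replicate 2 overlapped 18, and regions of both overlapped 16. Neighbouring pooled regions can overlap the same replicate region, so these counts are not independent. Promoter windows held 13 of the 20, and 3 lay within 100 bp of a 5′ end.

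Just below the threshold stood a summit in the last part of the gene, 13133 bp downstream of the outermost 5′ end and intronic in all 18 transcripts. It had a signal value of 208 and rank 2726, with rank 2229 in replicate 1 and rank 3163 in replicate 2. A summit 6226 bp downstream had a signal value of 201 and rank 2972, with ranks 2785 and 2609 in replicates 1 and 2. A summit 2124 bp upstream had a signal value of 198 and rank 3065, with ranks 4904 and 2373. A summit 44 bp downstream of the 5′ end at 4501212 had a signal value of 176 and rank 4160, with ranks 9699 and 2666. The replicates thus differed in which of these weaker regions stood among their 2430 strongest.

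At the outermost 5′ end of unc-62 itself, the nearest pooled summit lay 159 bp upstream and was weak, with a signal value of 116 and rank 11832. It had rank 18113 in replicate 1 and rank 9928 in replicate 2. The thresholded promoter summit of unc-62 was therefore at internal alternative 5′ ends and not at the outermost one. A further summit among the 2430 strongest of replicate 1, 7097 bp downstream of the outermost 5′ end and 202 bp upstream of the 5′ end at 4504760, had rank 1921 there. The pooled summit it overlapped had rank 9435, and replicate 2 had no overlapping region.

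**Figure D2:**
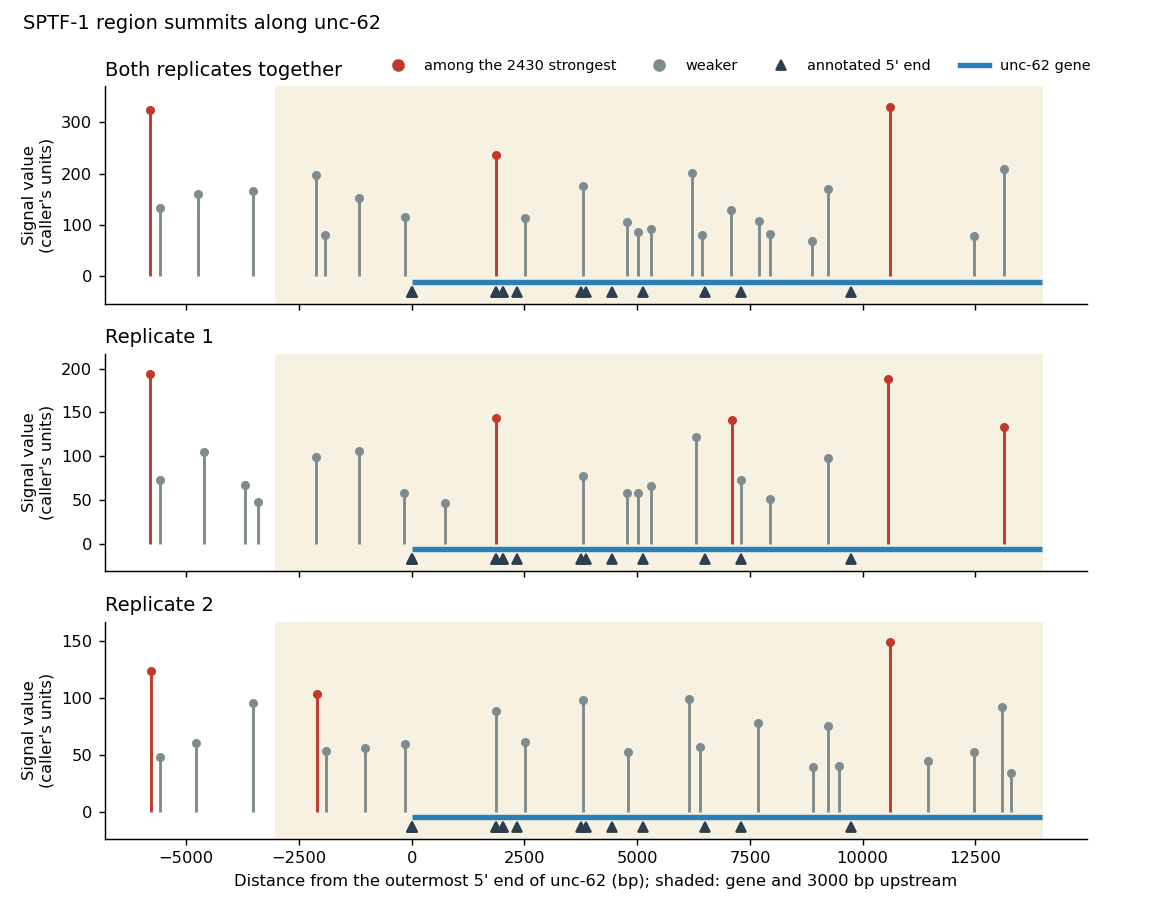
Signal values of summits along unc-62 in the pooled list (top), replicate 1 (middle) and replicate 2 (bottom) against distance from the outermost 5′ end in bp, with triangles at annotated 5′ ends, the gene and 3000 bp upstream shaded, and red marking the 2430 strongest regions of each list. The summit 10600 bp downstream is red in all 3 panels, while the one 1873 bp downstream is red in the pooled list and in replicate 1 and grey in replicate 2.

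**Figure D3:**
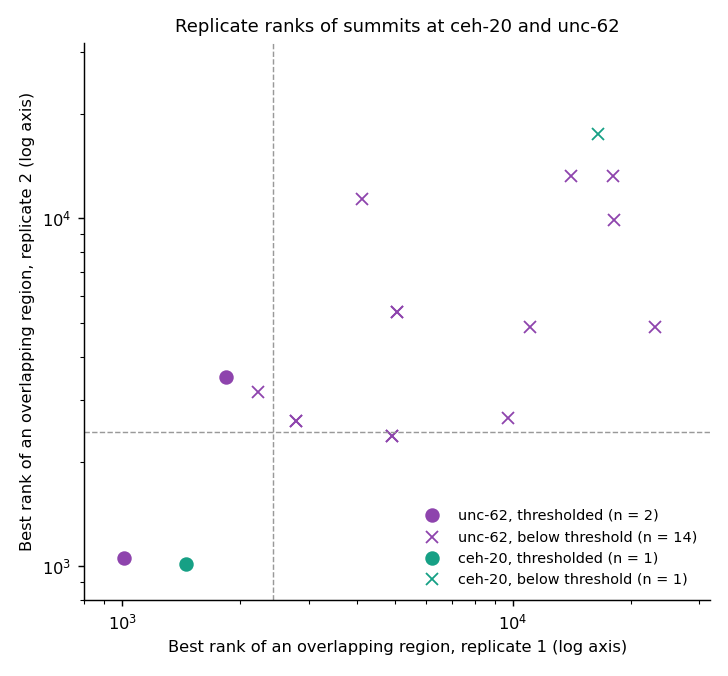
Rank in replicate 1 (x axis) against rank in replicate 2 (y axis) for pooled summits of ceh-20 and unc-62 that overlap a region of both replicates, on log axes, with dashed lines at rank 2430. Neighbouring pooled summits that overlap the same replicate region fall on the same point, and the points with a low rank in both replicates include the ceh-20 promoter summit (1459 and 1013) and the unc-62 intron summit (1012 and 1057).

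Per kb of gene and 3000 bp upstream, unc-62 had 1.18 pooled summits and ceh-20 had 0.612, while ceh-40 and ceh-60 had none. The median of all protein-coding genes was 0.191 per kb, and 8714 of them (43.6%) had none. A lower density than that of unc-62 was found at 98.9% of all genes, and a lower density than that of ceh-20 at 84.7%. These densities count weak regions, which can be background, like strong ones. With thresholded summits alone the order of the genes was reversed, at 0.204 per kb for ceh-20 and 0.118 for unc-62. Among the 495 genes with a window at least as long as that of unc-62, the median was 9 pooled summits, 48 genes had more than 20, and 48 had none. The number of 5′ ends also sets how much ground is searched as promoter. The promoter windows of unc-62 covered 9944 bp, or 58.5% of its window, while those of ceh-20, ceh-40 and ceh-60 covered 1501 bp each, which is also the median of all genes. Of the 6 genes with at least 15 distinct 5′ ends, unc-62 included, 3 had a thresholded promoter summit, beside 8.26% of all genes.

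Chromosomes differed in how many regions they carried. Chromosome V, with unc-62, had 222 pooled regions per Mb, and 59.8% of its genes had no pooled summit in the window. The X chromosome, with ceh-40 and ceh-60, had 236 per Mb and 46.9% of its genes had none. Chromosome III, with ceh-20, had 419 per Mb and 25.7% of its genes had none. Thresholded regions were ordered differently, with 15.01 per Mb on V, 29.3 on X and 29.9 on III, so X was close to III in strong regions. The part of these differences in the values of the 4 genes was not tested.

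**Figure D4:**
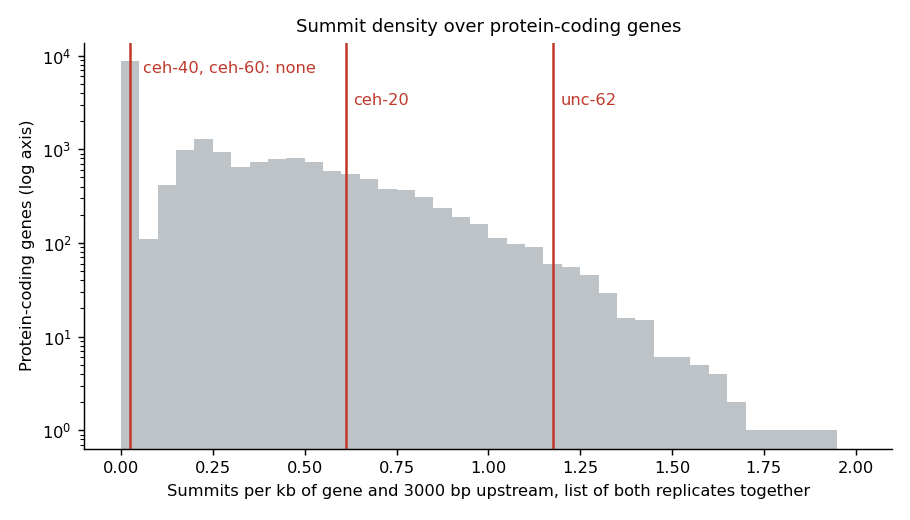
Number of protein-coding genes (y axis, log scale) by pooled summits per kb of the gene and 3000 bp upstream (x axis), with lines at the TALE cofactor genes. The line of unc-62 stands at 1.18 per kb in the upper tail, that of ceh-20 at 0.612, and ceh-40 and ceh-60 fall in the bar of genes with few or no summits.

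Base composition and short letter patterns were then described in the 200 bp around each summit, on both strands. The searched letters were GGGCGG (the GC box bound by Sp factors), GGGTGTGG and GGGCGTGG (CACCC-type boxes of the Sp and KLF family), TGATNNAT (a composite site of Hox and PBC proteins), TGACAG (a Meis-type site) and GAGAGAGA. None of the 6 patterns contains another, and copies of GAGAGAGA within a longer run overlap each other and are counted separately. Thresholded regions on the mitochondrial chromosome were left out, so the 2430 regions gave 2419 windows.

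The ceh-20 summit window held none of the 6 patterns and had a GC content of 49.5%. The unc-62 window at the alternative 5′ ends held GGGCGG 2 times and GAGAGAGA 5 times, with a GC content of 60.5%. The unc-62 intron window held TGATNNAT 1 time and had a GC content of 52%. The window of the summit 5800 bp upstream held none, with a GC content of 47.5%. The 3 thresholded windows in the genes thus shared no pattern at 200 bp. At 400 bp both unc-62 windows in the gene held GAGAGAGA, 5 times at the alternative 5′ ends and 2 times in the intron, and the upstream window held it 1 time with GGGCGG 2 times. The ceh-20 window held none of the patterns at 400 bp either.

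For comparison, GGGCGG was in 14.5% of the 2419 summit windows and in 5.95% of the 200 bp before the outermost 5′ end of all 19973 genes. GAGAGAGA was in 11.4% of summit windows and 2.74% of promoters of that length. TGATNNAT was in 6.37% and 16.1%, and TGACAG in 6.53% and 6.32%. GGGCGTGG was in 1.32% and 0.636%, and GGGTGTGG in 0.537% and 0.26%. Summit windows had a median GC content of 47% (quartiles 41.5% and 51.5%) and promoters one of 33% (quartiles 29% and 37.5%), so the shares compare windows that also differ in base composition.

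Of the 20 pooled summit windows of unc-62, GGGCGG was in 2, TGATNNAT in 2, TGACAG in 1 and GAGAGAGA in 1. In the 200 bp before the outermost 5′ end, ceh-20 held none of the patterns, unc-62 held TGATNNAT 1 time, ceh-40 held TGACAG 1 time, and ceh-60 held TGATNNAT and TGACAG 1 time each. The GC content there was 29% for ceh-20, 47.5% for ceh-40, 24% for ceh-60 and 38% for unc-62. The ceh-40 run was thus about as rich in GC as the median summit window (47%), while those of ceh-20, ceh-60 and unc-62 were poorer. The part of base composition in where regions were listed was not tested.

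The Hox genes, whose proteins bind DNA with the TALE cofactors, were set beside them. Of the 6 Hox genes, 0 had a thresholded promoter summit, beside 8.26% of all genes. A pooled promoter summit was found at all 6, beside 39.8% of all genes. All 6 genes lie on chromosome III, the chromosome with the most pooled regions per Mb. The best promoter summit of each had a rank between 6255 and 19384, where pooled regions can be background. The strongest was that of nob-1 (a posterior-group gene) with a signal value of 151 and rank 6255. The others were lin-39 (mid-body) at 135 and rank 8396, mab-5 (posterior body) at 112 and rank 12776, php-3 (posterior group) at 103 and rank 15290, egl-5 (tail) at 92.4 and rank 18796, and ceh-13 (anterior) at 90.9 and rank 19384. All 6 values were below those of the ceh-20 and unc-62 promoter summits, which were chosen for their height. Replicate regions were looked up only for the best promoter summit of each Hox gene, and ceh-13, php-3 and nob-1 had further ones. The best summits of nob-1 and egl-5 overlapped a region of both replicates. Those of ceh-13, mab-5 and php-3 overlapped no region of replicate 2, and that of lin-39 overlapped no region of replicate 1. Of the other TALE-class genes, irx-1 (an Iroquois gene) had a pooled promoter summit with a signal value of 155 and rank 5848. The Meis-related gene psa-3 had none, and the best of its 2 pooled summits in the window had rank 19244.

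**Figure D5:**
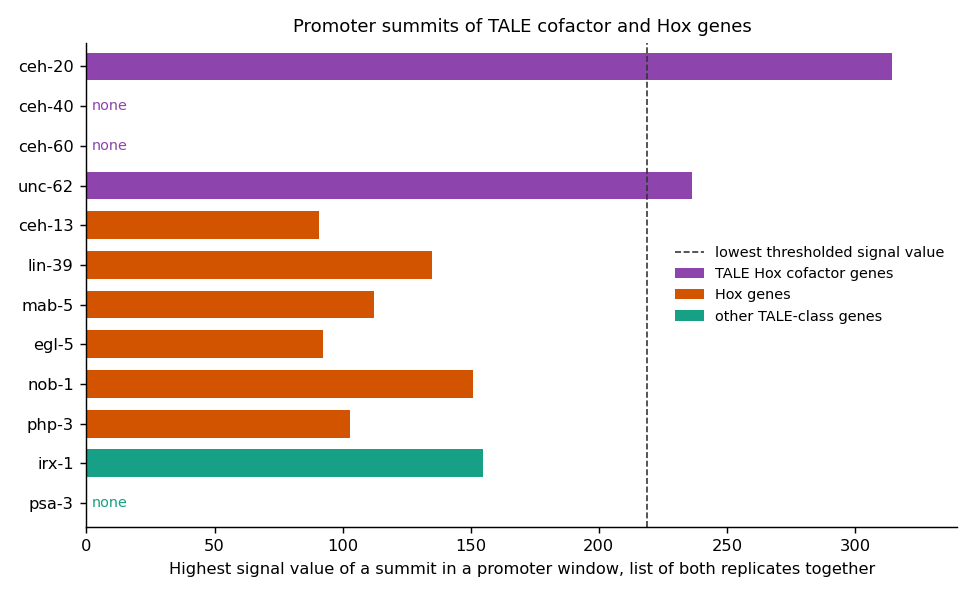
Highest signal value of a pooled summit in a promoter window for the TALE cofactor genes, the Hox genes and the other TALE-class genes, with a dashed line at the lowest thresholded signal value (219). The bars of ceh-20 (314) and unc-62 (236) pass the line, the 6 Hox genes stay between 90.9 and 151, and ceh-40, ceh-60 and psa-3 have no summit.

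A list of 13 possible targets or partners of Hox and TALE proteins was written from general knowledge and not taken from a published set. Of these genes, 0 had a thresholded promoter summit, beside 8.26% of all genes, and 4 (30.8%) had a pooled one, beside 39.8% of all genes. These were egl-18 and elt-6 (neighbouring genes for GATA factors) with signal values of 189 and 122, egl-1 (a cell death gene) with 123, and mls-2 (a homeobox gene of the mesoderm) with 74.3. The mls-2 promoter summit had rank 26843 and overlapped no region of either replicate. The window of egl-18 also held 4 thresholded summits outside its promoter windows. The window of hlh-8 (the relative of Twist) and those of vit-1, vit-3, vit-4, vit-5 and vit-6 (yolk protein genes, expressed in the adult intestine) held no pooled summit. The windows of vit-2 and psa-3 held 2 each and that of pqm-1 (a zinc-finger factor) held 1.

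Among the 98 genes whose RefSeq product names a homeobox, the 4 cofactor genes included, 8 (8.16%) had a thresholded promoter summit. Without the 4 the share was 6 of 94 (6.38%), beside 8.26% of all genes. The 6 others were ceh-39 (a ONECUT-class gene that counts among the X signals in sex determination) at a signal value of 382, ceh-38 (ONECUT class) at 375, Y56A3A.7 at 313, zag-1 (a ZEB-type factor of neurons) at 278, ceh-2 (EMX class) at 249 and ttx-1 (an Otx-type factor of the AFD thermosensory neurons) at 221. By signal value, ceh-20 stood between ceh-38 and Y56A3A.7, and unc-62 between ceh-2 and ttx-1. A pooled promoter summit was found at 56 of the 98 genes (57.1%), beside 39.8% of all genes. No pooled summit in the window was found at 28 of them (28.6%), beside 43.6% of all genes.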

How the data were processed

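ChIP-seq of tagged SPTF-1 was measured in 2 biological replicates, as the labels name them. Per the deposited file listings, the caller read each alignment beside a control, and the thresholded list is what the authors kept as optimal after testing replicate reproducibility (IDR). The signal values and the −log10 q values are the authors' own, as deposited. Aligner, peak caller, IDR cutoff and sequencing depth are not given in the sources used here, so no counting error can be stated. Because the lists hold regions only, no signal at other places and no control value was used.

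The ce11 lists were analysed, since the genome (RefSeq) and the gene annotation (Ensembl release 115) are of the matching WBcel235 build, and no region on the 7 chromosomes ran past the end of its reference sequence. The ce10 lists were not used here. The sequence at the alternative 5′ ends of unc-62 is not reported here. Summits were placed in promoter windows, gene windows and exons, and regions were ranked by signal value, since 1725 of 2430 thresholded regions share the highest −log10 q. Replicate regions were matched to pooled ones by 1 shared base or more, and the one with the best rank was taken. Shares over all genes were counted in the same way. The members and lists were chosen with earlier results of these data known, and no test was made. Genes named are the members, the Hox, TALE-class and possible target or partner genes (a list written from general knowledge), homeobox genes with a thresholded promoter summit, and the genes next to a member's promoter summit in signal value. The counting was tested on simulated data. Alternatives covered the promoter window, gene reach, gene assignment, a stricter list, the ranking, the overlap rule, the motif window and each replicate alone. The scripts ran under Python 3.11.15 with NumPy 2.4.6 and with matplotlib 3.10.9 for the figures.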

Additional observations from a re-analysis of the deposited data

How the results depend on the processing

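Of 43 alternative values, 35 stayed within 1.5 times the value in the report and 8 did not. With 500 bp upstream in the promoter window, 1 cofactor gene had a thresholded promoter summit (unc-62 only) and 5 homeobox genes had one. With a stricter thresholded list, cut at its median signal value, the counts were 1 cofactor gene (ceh-20 only), 4 homeobox genes and 959 of all genes. Leaving out 1 replicate gave 1 to 2 cofactor genes: without replicate 1, ceh-20 alone had a promoter summit among the 2430 strongest of replicate 2. It gave 3 to 5 summits in the genes and 3000 bp upstream, with 5 when replicate 2 was left out, all but 1 of them at unc-62. With a window of 100 bp, 1 of the 3 member summits held a searched pattern, and 2 did with 200 bp and with 400 bp. The counts of 0 for the Hox genes and for the target or partner genes held under all 6 alternatives run. Ranked by −log10 q, the unc-62 summit at 4499334 had rank 2129. No paired analysis was possible because the series has 1 group. The lists give no depth, so a missing region cannot be told apart from a signal too weak to be listed.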
